A study of Mus musculus with 12 samples.

Results

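The genes described here are 34 interferon response and MHC class I genes of the mouse, chosen by name as genes that interferons are known to induce or that serve antigen presentation on MHC class I. Of these, 32 had a probe set annotated to that gene alone, and the probe set with the highest mean over the arrays stood for each gene. Tests were limited to probe sets with a log2 level over 4 on 3 arrays or more, which left 21 members and, controls aside, 23044 of 45037 probe sets. Isg15 and Ifi44 had no such probe set and are only named.

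The samples were cerebellar granule cells in primary culture, the most numerous neurons of the cerebellum. They came from lethargic mice of the 129/SvJ background at postnatal day 7, were treated with lentiviral constructs for 12 hours right after plating and were harvested for RNA after 9 days in vitro. The lethargic mutation lies in Cacnb4, the gene of the calcium channel β4 subunit, so the eGFP controls carried it too. Each of 4 groups (eGFP, β4a, β4b and β4e, the last 3 being splice variants of β4) had 3 samples, 1 array each, and every group's titles held the replicate numbers 1 to 3. All groups had received virus and Ara-C, an antimitotic given against non-neuronal cells. No culture without virus and no interferon-treated culture was analysed here, so the levels below have no such reference.

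Type I interferons act through a receptor of the subunits Ifnar1 and Ifnar2, the kinases Jak1 and Tyk2 and a complex that holds Stat2 and Irf9, which binds the interferon-stimulated response element (ISRE) in front of antiviral genes. Genes that respond to interferon gamma often carry another element, the gamma-activated site (GAS). Cells sense viral nucleic acid through receptors such as Ddx58 (RIG-I) and Ifih1 (MDA5), and interferons also raise the immunoproteasome, the peptide transporter and MHC class I itself, which healthy neurons are known to express at low levels.

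The promoters of 5 members are shown because they carry the ISRE and stand for members that differed between replicate numbers (Gbp3, Bst2, Cxcl10, B2m) and for a member that read below 4 throughout (Ifit1). Each line gives the 250 bases before the RefSeq start of the gene on the gene's own strand, build GRCm38.p6, at chr3:142559794-142560043 (plus strand) for Gbp3, chr8:71537473-71537722 (minus) for Bst2, chr5:92348890-92349139 (minus) for Cxcl10, chr2:122147437-122147686 (plus) for B2m and chr19:34640639-34640888 (plus) for Ifit1. Capitals mark each match to the ISRE core, which is GAAA, any 2 bases and GAAA again, on either strand, and a run longer than 10 bases holds overlapping matches.
Gbp3: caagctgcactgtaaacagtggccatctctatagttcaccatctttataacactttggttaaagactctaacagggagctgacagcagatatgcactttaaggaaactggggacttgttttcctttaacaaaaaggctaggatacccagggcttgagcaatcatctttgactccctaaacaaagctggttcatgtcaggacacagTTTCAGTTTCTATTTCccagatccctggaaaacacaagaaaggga
Bst2: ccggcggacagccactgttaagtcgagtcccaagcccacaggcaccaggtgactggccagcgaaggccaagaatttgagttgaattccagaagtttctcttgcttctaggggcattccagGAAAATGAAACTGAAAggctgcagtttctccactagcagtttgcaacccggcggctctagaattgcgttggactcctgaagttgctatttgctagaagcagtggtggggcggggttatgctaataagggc
Cxcl10: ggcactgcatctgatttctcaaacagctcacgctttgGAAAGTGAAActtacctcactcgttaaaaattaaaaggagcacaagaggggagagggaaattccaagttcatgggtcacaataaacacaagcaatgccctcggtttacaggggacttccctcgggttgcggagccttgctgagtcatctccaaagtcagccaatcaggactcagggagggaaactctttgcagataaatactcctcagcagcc
B2m: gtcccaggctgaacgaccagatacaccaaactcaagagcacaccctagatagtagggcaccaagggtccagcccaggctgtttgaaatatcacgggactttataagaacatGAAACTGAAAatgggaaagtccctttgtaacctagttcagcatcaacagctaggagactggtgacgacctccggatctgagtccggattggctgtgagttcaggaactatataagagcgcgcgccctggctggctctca
Ifit1: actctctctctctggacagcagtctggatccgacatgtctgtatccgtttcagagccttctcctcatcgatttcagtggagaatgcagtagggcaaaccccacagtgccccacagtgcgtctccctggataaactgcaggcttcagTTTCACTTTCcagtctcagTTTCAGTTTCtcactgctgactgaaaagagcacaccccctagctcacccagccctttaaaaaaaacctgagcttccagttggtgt
The ISRE core occurred on either strand in the window from 250 bases before to 50 after the start in 15 of the 28 members that RefSeq's promoter table held (53.6%), against 3.44% of all 32851 windows of that length and 3.99% of genes with a window. The GAS letters TTCNNNGAA, which read the same on both strands, occurred in 8 of 28 members (28.6%) against 8.3% of all windows and 9.55% of genes. Gbp3, Bst2, Isg15 and Oas1a held overlapping ISRE matches. In Bst2 the GAS match began 136 bases before the start and overlapped the first ISRE match, which began 130 bases before it, and the GAS and ISRE matches of Ifitm3 overlapped too. Of the members below the filter, Ifit1 and Gbp2 held the ISRE core. The member windows are a small set chosen as interferon genes, and a match is not evidence of binding.

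Many members read close to the level of the filter, and each level below is a log2 GCRMA intensity of the member's own probe set. Levels of different probe sets are not compared, since probes differ in brightness. Among the sensors, Ddx58 read 3.90 to 4.46 and Ifih1 3.80 to 4.57, and Dhx58 (LGP2) did not pass the filter. Among the signalling genes, Irf7, the factor that amplifies type I interferon production, stayed between 2.93 and 3.37 on all 12 arrays, while Irf9 read 4.18 to 5.30, Irf1 4.30 to 4.87 and Stat2 3.89 to 5.13.

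Of the antiviral effectors, 11 of 17 with a probe set passed the filter. The GTPases Mx1 and Mx2, the RNA-binding protein Ifit1, the OAS-like protein Oasl2, Gbp2 and Parp14 were below 4 on all 12 arrays. Mx1 read 2.46 to 3.15 and Ifit1 2.64 to 3.35. Ifitm3, a membrane protein that blocks viral entry, read 8.44 to 9.82, and Eif2ak2 (PKR), the kinase that stops translation on double-stranded RNA, read 5.10 to 7.05. Usp18, the protease that removes ISG15, passed 4 on 2 arrays and was not tested.

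MHC class I itself was read well above the filter. B2m, the invariant light chain, read 11.38 to 12.40, H2-D1 10.20 to 11.10 and H2-K1 9.01 to 9.74. The H2-D1 and H2-K1 probe sets used are of a type whose probes can match several transcripts, so reads of other class I heavy chains cannot be told apart from theirs. The peptide transporter Tap1 and the immunoproteasome subunit Psmb9 did not pass the filter, and the subunit Psmb8 passed it with 3 arrays.

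The interferons themselves stayed below 4 on all 12 arrays, with Ifnb1 at 2.78 to 3.22, Ifna1 at 3.31 to 3.78, Ifna2 at 2.61 to 3.03, Ifna4 at 3.21 to 3.83 and Ifng at 2.02 to 2.37. Their receptors were read above the filter, with Ifnar1 at 5.90 to 6.73, Ifnar2 at 6.46 to 7.27 and Ifngr1 at 4.72 to 5.66. Of 6 MHC class II genes with a probe set, 5 were below 4 on all 12 arrays, and Cd74 read 4.40 to 4.84.

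**Figure D1:**
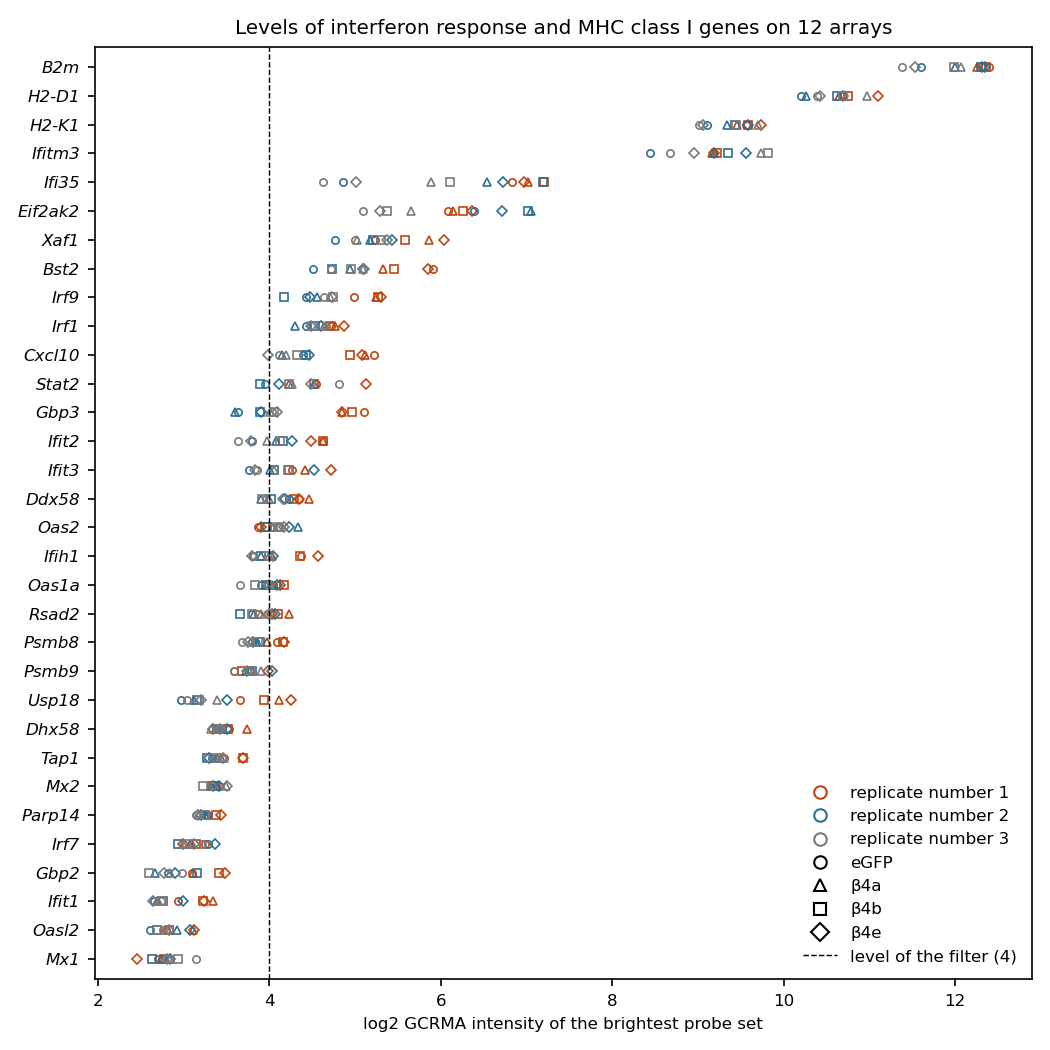
Log2 GCRMA intensity (x axis) of the probe set of each of 32 members (y axis, sorted by mean) on 12 arrays; colour is the replicate number, shape the group, and the dashed line the filter level of 4. B2m lies between 11.38 and 12.40, many other members lie near or below 4, and the arrays numbered 1 are at the right of many rows.

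The first question was whether a β4 variant moved these genes away from eGFP. None of the 21 tested members passed an adjusted p of 0.05 (limma, Benjamini-Hochberg over 23044 probe sets) in β4a, β4b or β4e against eGFP, in the mean of the variants against eGFP, between any 2 variants or in the test for any difference among the 4 groups. In each of these comparisons 0% of all probe sets passed, so the members' count equals the background. At an unadjusted p under 0.05 there was 1 member each in β4a (Ifitm3, background 1.58%), β4b (Ifitm3, 2.63%), β4e (Xaf1, 0.36%) and the mean (Ifitm3, 2.03%), and 0 members between β4a and β4b (background 0.243%), β4a and β4e (0.664%), β4b and β4e (0.759%) or among the 4 groups (0.759%).

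With the replicate number as a block, which takes out what arrays of 1 number share, again 0 of 21 members passed in any of these comparisons, against 0.013% of all probe sets for β4a, 0.013% for β4b, 0% for β4e and 0.0217% for the mean. The smallest blocked adjusted p values (limma) were 0.232 for Eif2ak2 in β4a, 0.0998 for Ifi35 in β4b, 0.873 for Xaf1 in β4e and 0.117 for Xaf1 in the mean. At an unadjusted p under 0.05 the block gave 4 higher members for β4a (19% against 8.21% of all probe sets), 5 for β4b (23.8% against 11.6%), 3 for β4e (14.3% against 3.14%) and 4 for the mean (19% against 10%). These were all the members at that level, and in either direction the background was 15.3%, 19.3%, 5.54% and 17.5%. Xaf1 and Ifi35 were in each of these sets.

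The members' differences from eGFP were small and mostly above 0. Their median was 0.13 in β4a, 0.10 in β4b and 0.16 in β4e on the log2 scale, where the median of all probe sets tested was 0.02, 0.03 and 0.01. With 1 array left out and no block, these medians ranged from 0.0091 to 0.32, 0.0060 to 0.36 and 0.096 to 0.38, lowest without the variant's array numbered 1 and highest without the eGFP array numbered 1. Above 0 were 15, 15 and 20 of 21 members, beside 54.4%, 55% and 53.3% of all probe sets. Higher than eGFP in all 3 replicate numbers were 5 members in β4a (23.8%, against 19.1% of all probe sets), 9 in β4b (42.9%, against 22.9%) and 10 in β4e (47.6%, against 15.3%). Lower in all 3 were 1 (4.76%, against 16.4%), 2 (9.52%, against 18.1%) and 0 (against 12.4%). The 3 comparisons share the eGFP arrays, so they are not 3 separate observations.

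The size of these differences varied with the replicate number. Among arrays numbered 1 the members' median difference was -0.01 for β4a and 0.02 for β4b, among those numbered 2 it was 0.23 and 0.22, and among those numbered 3 it was 0.17 and 0.21. For β4e it was 0.14, 0.27 and 0.08 in numbers 1, 2 and 3. The eGFP array was below its 3 variant arrays for 6 of 21 members in number 1 (28.6%, against 26.1% of all probe sets), for 12 in number 2 (57.1%, against 35.1%) and for 12 in number 3 (57.1%, against 31.3%).

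Ifi35, an interferon-induced leucine zipper protein, had the highest difference in each variant. With eGFP its probe set 1445897_s_at read 6.84, 4.86 and 4.63 in numbers 1, 2 and 3, with β4a 7.02, 6.55 and 5.88, with β4b 7.20, 7.20 and 6.10, and with β4e 6.97, 6.73 and 5.01. The eGFP arrays numbered 2 and 3 were the lowest of the 12, while that numbered 1 lay within the variants' range. The difference from eGFP was 1.04 for β4a (95% interval -0.46 to 2.54), 1.40 for β4b (-0.10 to 2.89) and 0.80 for β4e (-0.70 to 2.30), from the fit without the block, and the blocked intervals were 0.29 to 1.80, 0.64 to 2.15 and 0.04 to 1.55, with adjusted p of 0.232, 0.0998 and 0.892 (limma). Without the eGFP array numbered 3 it fell to 0.64 for β4a, 0.99 for β4b and 0.39 for β4e, and without the eGFP array numbered 1 it was 1.74, 2.09 and 1.50.

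The other probe sets of Ifi35 gave smaller differences, 0.22, 0.23 and 0.25 for 1424617_at and 0.12, 0.20 and 0.24 for 1459151_x_at in β4a, β4b and β4e. The larger difference of Ifi35 thus rests on 1445897_s_at.

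Ifitm3, named here after its values were seen, gave a difference of 0.60 ± 0.55 for β4a (SD over the 3 replicate numbers), 0.71 ± 0.58 for β4b and 0.48 ± 0.58 for β4e. Within number 1 these differences were -0.01, 0.05 and 0.02, within number 2 they were 0.75, 0.92 and 1.13, and within number 3 they were 1.07, 1.15 and 0.28. The 4 arrays numbered 1 read 9.17 to 9.23, and the eGFP arrays numbered 2 and 3, at 8.44 and 8.67, were the lowest of the 12.

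Xaf1, an interferon-induced gene tied to cell death, was higher than eGFP in all 3 numbers with each variant. Its array values were 5.23, 4.77 and 5.00 with eGFP, 5.86, 5.17 and 5.02 with β4a, 5.58, 5.21 and 5.30 with β4b, and 6.04, 5.43 and 5.38 with β4e in numbers 1, 2 and 3. The β4e difference was 0.61 (95% interval 0.05 to 1.18, unadjusted p 0.0368, limma) and its blocked interval was 0.33 to 0.90. The adjusted p was 0.9999 without the block and 0.873 with it (limma). All 3 β4e arrays lay above all 3 eGFP arrays, while β4a and β4b overlapped with eGFP. A second Xaf1 probe set, 1443698_at, did not pass the filter and gave smaller differences, 0.05, 0.13 and 0.09 in β4a, β4b and β4e.

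Eif2ak2 was likewise above eGFP in all 3 numbers with each variant, by 0.43 ± 0.32 for β4a, 0.36 ± 0.24 for β4b and 0.26 ± 0.06 for β4e (SD over 3 numbers). The intervals without the block all held 0. With the block they were 0.12 to 0.73, 0.05 to 0.67 and -0.05 to 0.57, with adjusted p of 0.232, 0.201 and 0.894 (limma). Eif2ak2 differed more between numbers than between groups, as given below.

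Of the MHC class I chain genes, B2m read 12.40, 11.60 and 11.38 with eGFP in numbers 1, 2 and 3, 12.25, 12.01 and 12.07 with β4a, 12.36, 12.30 and 11.99 with β4b, and 12.31, 12.35 and 11.54 with β4e. It was below eGFP in number 1 and above it in numbers 2 and 3 with each variant, and its difference was 0.31 ± 0.43, 0.42 ± 0.41 and 0.27 ± 0.43 (SD over 3 numbers). A second B2m probe set, 1452428_a_at, gave 0.22, 0.33 and 0.27.

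H2-D1 read 10.68, 10.20 and 10.40 with eGFP, 10.64, 10.27 and 10.97 with β4a, 10.75, 10.63 and 10.70 with β4b, and 11.10, 10.70 and 10.42 with β4e in numbers 1, 2 and 3. H2-K1 read 9.56, 9.11 and 9.01 with eGFP, 9.45, 9.34 and 9.70 with β4a, 9.58, 9.43 and 9.44 with β4b, and 9.74, 9.59 and 9.06 with β4e. Their differences from eGFP lay between 0.20 and 0.31, with every interval holding 0, and the groups overlapped.

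**Figure D2:**
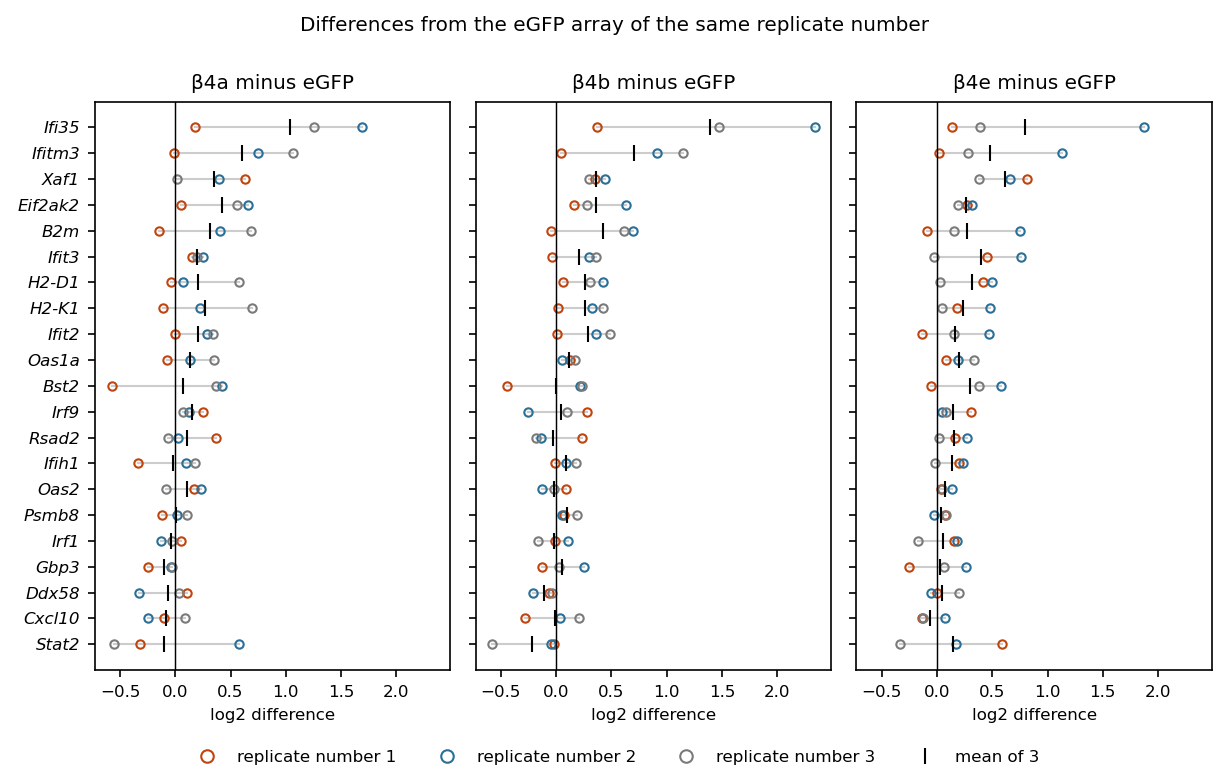
Log2 difference of each variant array from the eGFP array of the same replicate number (x axis) for the 21 tested members (y axis), 1 panel per variant; coloured circles are the 3 replicate numbers and the black tick their mean. Ifi35 has the highest mean in each panel, 1.04, 1.40 and 0.80, and its circle of number 1 is the lowest of the 3.

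Astrocyte markers moved beside these differences from eGFP. The log2 of the summed level of 12 astrocyte and Bergmann glia markers was 13.98 with eGFP and 14.42 to 14.74 with the variants in number 2, and 14.20 with eGFP and 14.68 to 15.54 with the variants in number 3, while in number 1 it was 14.86 with eGFP and lower, 14.56 to 14.79, with the variants. For the mean of the variants 12 of 12 of these markers lay above eGFP (median 0.54, 0 passed), beside 55% of all probe sets. So did 9 of 9 oligodendrocyte markers (median 0.14, 0 passed). It was 7 of 12 for microglia and macrophage markers (median 0.01), 4 of 7 for fibroblast and meningeal markers (median 0.05) and 2 of 9 for granule cell markers (median -0.05). Of 7 endothelial markers, 6 were below 4 on all 12 arrays. The part of glial cells in the members' differences was not tested, and in such mixed cultures fewer cells of a type and less RNA per cell cannot be told apart.

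Arrays that shared a replicate number were most alike, so the second question was how the members differed between numbers, with group as a term of the fit. The labels do not say what a number stands for. The p values set a difference between numbers against the spread left among these arrays after number and group. Each number is a single unit, so they do not measure variation between units of its kind. Replicate number 1 against number 2 gave 11 of 21 members past the threshold (52.4%), against 53.2% of all probe sets, and the share is close to the background. In direction they leaned to number 1: 10 members were higher there (47.6%, against 29%) and only Eif2ak2, by the probe set used, was lower (4.76%, against 24.2%). The 10 include Psmb8 and Ifih1, which passed the filter only with the help of arrays numbered 1. For these members the filter itself favoured the higher direction.

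Against number 3, 13 of 21 members passed (61.9%, against 48.2% of all probe sets), all of them higher in number 1 (background 28.5%) and 0 lower (background 19.8%). Between numbers 2 and 3, 4 members passed (19%, against 32.3%): Eif2ak2 and Ifi35 were higher in number 2, and Irf9 and Gbp3 were lower. With 1 array left out, Eif2ak2 kept this call in 12 of 12 fits, Ifi35 in 4, Irf9 in 3 and Gbp3 in 3. Any difference among the 3 numbers passed for 13 members (61.9%, against 65.2%). The median member difference was 0.32 for number 1 minus 2 and 0.42 for 1 minus 3, where the median over all probe sets was 0.04 and 0.09. Above 0 were 19 of 21 members in each, beside 53.6% and 59% of all probe sets, and for number 2 minus 3 it was 12 of 21 beside 51.2%. The medians and counts for number 1 include Psmb8, Ifih1 and Rsad2, which passed the filter only with the help of arrays numbered 1. Without Psmb8, 18 of 20 lay above 0 for 1 minus 2 and for 1 minus 3, with Ifih1 and Rsad2 still counted.

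For 8 members (38.1%, against 14.7% of all probe sets) all 4 arrays numbered 1 lay above the other 8: Ddx58, Irf1, Irf9, Ifit2, Bst2, Gbp3, Psmb8 and Cxcl10. For 0 members did they all lie below (background 12.4%). Psmb8 passed the filter through arrays numbered 1 alone, so it had to be higher there. Ifih1 and Rsad2 also needed those arrays to pass. Outside number 1, Ifih1 was over 4 only with β4b in number 3 (4.00) and β4e in number 2 (4.04). Rsad2 was over 4 there only with β4e in number 2 (4.07). Without Psmb8, 10 of 20 members passed for 1 minus 2 (9 of them higher) and 12 of 20 for 1 minus 3, with Ifih1 still counted in each. Of all probe sets, 53.2% and 48.2% passed, so the count for 1 minus 2 was not above the background. Of these 20, 7 had all arrays numbered 1 above the others. Without the filter, 14 of 32 members passed between numbers 1 and 2 (43.8%, against 32.5% of 45037 probe sets) and 16 between 1 and 3 (50%, against 29.6%), which added Ifit1, Gbp2 and Usp18 in both comparisons. With the eGFP arrays left out, 8 members passed for 1 minus 2 (38.1%, against 43.5% of all probe sets) and 10 for 1 minus 3 (47.6%, against 40.3%).

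Gbp3, a guanylate-binding GTPase, differed most clearly. Its probe set 1418392_a_at read 5.10, 4.85, 4.97 and 4.85 in number 1 (eGFP, β4a, β4b and β4e in this order, here and below), 3.64, 3.60, 3.90 and 3.90 in number 2, and 4.03, 4.00, 4.06 and 4.10 in number 3. The 3 numbers did not overlap, and number 2 was the lowest. The difference was 1.18 ± 0.09 (SE) for number 1 minus 2 (adjusted p 1.46e-05, limma) and 0.90 ± 0.09 for 1 minus 3 (adjusted p 8.91e-05). The further guanylate-binding gene Gbp6 moved likewise, at 6.13 ± 0.65 (SD, n = 4), 4.09 ± 0.37 and 4.59 ± 0.10 in numbers 1, 2 and 3.

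Cxcl10, the chemokine that draws CXCR3-bearing lymphocytes, read 5.22, 5.12, 4.94 and 5.08 in number 1, 4.39, 4.15, 4.43 and 4.47 in number 2, and 4.11, 4.20, 4.32 and 3.98 in number 3. Number 1 stood above both others, which overlapped. The difference was 0.73 ± 0.11 (SE) for 1 minus 2 and 0.93 ± 0.11 for 1 minus 3 (adjusted p 0.00051 and 0.000166, limma). Its relative Cxcl11 had another order, at 4.27 ± 0.19 (SD, n = 4), 4.94 ± 0.34 and 4.08 ± 0.17, highest in number 2.

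Bst2 (tetherin), which holds budding virus at the cell surface, read 5.91, 5.33, 5.46 and 5.85 in number 1, 4.52, 4.94, 4.73 and 5.09 in number 2, and 4.72, 5.09, 4.95 and 5.10 in number 3. Again number 1 stood above both others, and those overlapped. Its difference was 0.82 ± 0.15 (SE) for 1 minus 2 and 0.67 ± 0.15 for 1 minus 3 (adjusted p 0.00152 and 0.00535, limma).

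Irf9, the DNA-binding part of the interferon-activated complex, read 4.99, 5.24, 5.27 and 5.30 in number 1, 4.43, 4.55, 4.18 and 4.48 in number 2, and 4.64, 4.71, 4.74 and 4.73 in number 3. The 3 numbers did not overlap. The difference was 0.79 ± 0.10 (SE) for 1 minus 2, 0.50 ± 0.10 for 1 minus 3 and -0.29 ± 0.10 for 2 minus 3 (adjusted p 0.00015, 0.00265 and 0.0436, limma). For 2 minus 3, Irf9 kept its call in 3 of 12 fits with 1 array left out. Irf9 also lost that call without the filter, after normalizing again and with a variance trend. Stat2, its partner, read 4.55, 4.23, 4.53 and 5.13 in number 1, 3.94, 4.52, 3.89 and 4.11 in number 2, and 4.82, 4.26, 4.23 and 4.49 in number 3, and these overlapped. It did not pass in any of the 3 comparisons, with a difference of 0.49 for 1 minus 2 (95% interval 0.04 to 0.94, adjusted p 0.0657, limma). A second Stat2 probe set, 1450403_at, passed for 1 minus 2 with a difference of 0.52.

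Ifit2, an antiviral RNA-binding protein, read 4.62, 4.62, 4.63 and 4.49 in number 1, 3.80, 4.08, 4.15 and 4.26 in number 2, and 3.63, 3.97, 4.12 and 3.78 in number 3. Number 1 stood apart and the others overlapped. The difference was 0.52 ± 0.11 (SE) for 1 minus 2 and 0.71 ± 0.11 for 1 minus 3 (adjusted p 0.00327 and 0.000679, limma). Its relative Ifit3 read 4.26, 4.42, 4.23 and 4.72 in number 1, 3.77, 4.01, 4.06 and 4.52 in number 2, and 3.86, 4.05, 4.22 and 3.83 in number 3. Ifit3 overlapped between numbers and passed in 1 minus 3 alone (0.42 ± 0.15 SE, adjusted p 0.0389, limma). It kept that call in 4 of 12 fits with 1 array left out, at differences from 0.24 to 0.53.

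The sensor Ifih1 read 4.37, 4.03, 4.36 and 4.57 in number 1, 3.81, 3.90, 3.90 and 4.04 in number 2, and 3.82, 3.99, 4.00 and 3.80 in number 3. The β4a array of number 1 lay among the other numbers, and the difference was 0.42 ± 0.11 (SE) and 0.43 ± 0.11 for 1 minus 2 and 1 minus 3 (adjusted p 0.0119 and 0.0118, limma). Ifih1 needed arrays numbered 1 to pass the filter, so its selection favoured a higher level there. Without the filter it also passed in each of these comparisons. Xaf1 was 0.53 ± 0.11 and 0.50 ± 0.11 higher in number 1 (adjusted p 0.0027 and 0.00433), with the arrays given above.

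Eif2ak2 followed another order. The Eif2ak2 probe set 1422005_at read 6.09, 6.15, 6.26 and 6.36 in number 1, 6.39, 7.05, 7.02 and 6.71 in number 2, and 5.10, 5.66, 5.38 and 5.29 in number 3. The 3 numbers did not overlap, number 2 was the highest, and the difference was -0.58 ± 0.12 (SE) for 1 minus 2 and 1.44 ± 0.12 for 2 minus 3 (adjusted p 0.0027 and 7.63e-05, limma). Another Eif2ak2 probe set, 1440866_at, gave 0.85 for 1 minus 2 and 2.40 for 1 minus 3. A further tested set, 1422006_at, gave 0.03, which did not pass, and 0.44. Number 2 was thus the highest with 1422005_at alone, so the order of numbers 1 and 2 depends on the probe set. Number 3 was the lowest with each.

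Ifi35 was 7.01 ± 0.15 (SD, n = 4) in number 1, 6.33 ± 1.02 in number 2 and 5.41 ± 0.70 in number 3. Its difference was 1.60 ± 0.29 (SE) for 1 minus 3 (adjusted p 0.00177, limma) and did not pass for 1 minus 2 (0.68 ± 0.29, adjusted p 0.0759). The other Ifi35 probe sets did not pass, with 1 minus 3 at 0.03 for 1424617_at and -0.03 for 1459151_x_at.

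B2m was 12.33 ± 0.06 (SD, n = 4), 12.06 ± 0.34 and 11.74 ± 0.34 in numbers 1, 2 and 3. It passed for 1 minus 3 (0.59 ± 0.16 SE, adjusted p 0.0149, limma), which it lost without the β4e array numbered 3, and its second probe set gave 0.39 (adjusted p 0.054). H2-D1 and H2-K1 did not pass in any comparison of numbers with the probe sets used. Some other probe sets of these genes did. For H2-D1, 1451683_x_at was 0.50 and 0.82 higher in number 1 than in 2 and 3, and 1451784_x_at 0.34 higher than in 2. For H2-K1, 1425336_x_at was 0.57 higher than in number 3 but gave -0.06 for 1 minus 2. The other tested sets did not pass for 1 minus 2 or 1 minus 3. These were 1426324_at (0.01 and 0.23) and 1452544_x_at (-0.17 and 0.08) for H2-D1, and 1427746_x_at (-0.11 and 0.09) for H2-K1.

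The remaining members changed less. Irf1 was 0.30 higher in number 1 than in 2 and Ddx58 0.28 and 0.36 higher than in 2 and 3, each past the threshold. For 1 minus 2, Ddx58 lost its call in 5 and Irf1 in 4 of 12 fits with 1 array left out. Psmb8, which only arrays numbered 1 carried past the filter, stood at 4.10 ± 0.09 (SD, n = 4), 3.85 ± 0.03 and 3.77 ± 0.08, as a description. Oas1a, Oas2, Rsad2 and Ifitm3 did not pass in any comparison of numbers, and Oas2 lay the other way, at 3.94 ± 0.07 (SD, n = 4), 4.16 ± 0.16 and 4.11 ± 0.06. Usp18, which was not tested, read 3.65 to 4.26 in number 1 and 2.97 to 3.51 in the other numbers.

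**Figure D3:**
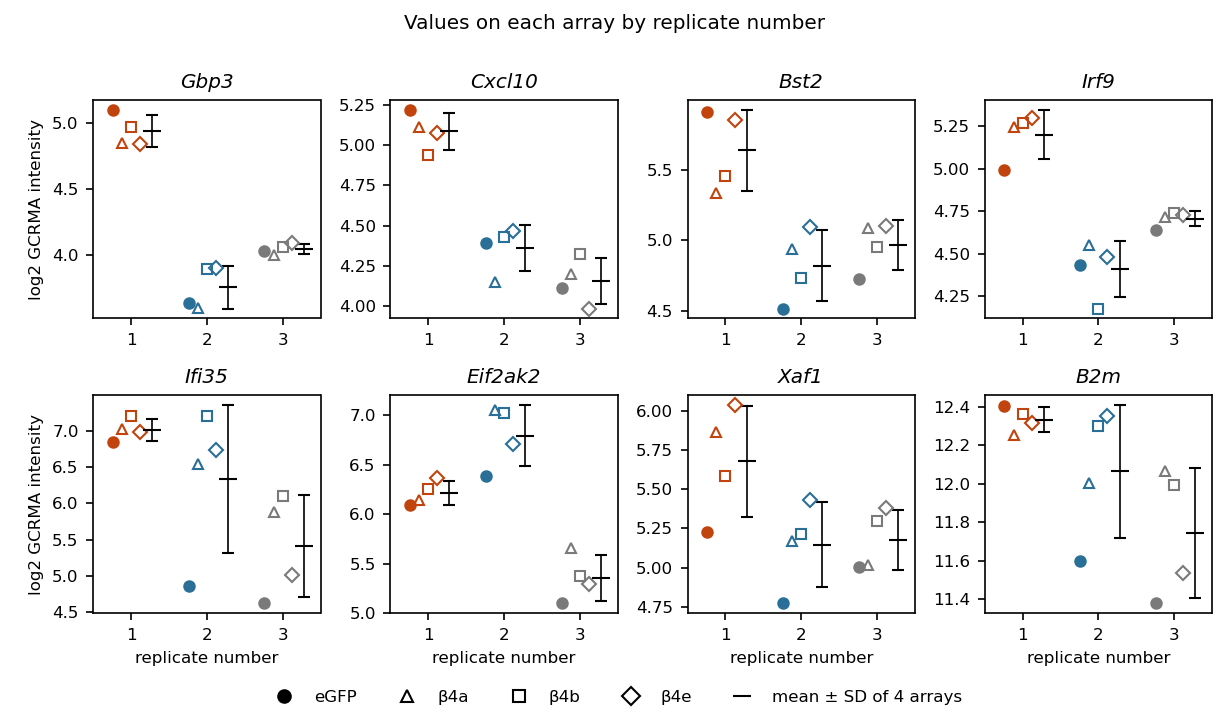
Log2 GCRMA intensity (y axis, a scale of its own per panel) of 8 members on each array by replicate number (x axis); shapes are the groups and black bars the mean ± SD of the 4 arrays of a number. In Gbp3, Cxcl10, Bst2 and Irf9 the 4 arrays numbered 1 lie above the other 8, and Eif2ak2 (1422005_at) is highest in number 2. In Ifi35 and B2m the eGFP arrays numbered 2 and 3 lie below the variants of their number.

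Other genes of the pathway also differed between numbers, at shares to be read against the 53.2% and 48.2% of all probe sets that passed for 1 minus 2 and 1 minus 3. By direction, 29% of all probe sets were higher and 24.2% lower in number 1 than in 2. Against number 3, 28.5% were higher and 19.8% lower. These shares apply to the pathway counts below. Of 12 tested interferon, receptor, kinase and feedback genes, 6 were higher and 1 lower in number 1 than in 2, and 7 higher and 1 lower than in 3. Irf2, a repressor of interferon genes, stood at 7.52 ± 0.29 (SD, n = 4), 6.27 ± 0.43 and 6.16 ± 0.16 in numbers 1, 2 and 3, and Socs3, a feedback inhibitor of cytokine signalling, at 7.79 ± 0.44, 6.47 ± 0.51 and 6.98 ± 0.38. The kinase Jak1 was 0.88 and 0.45 higher in number 1, and the receptor chain Ifngr2 was lowest in number 3 (1 minus 3 at 0.59).

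Of 6 tested nucleic acid sensing genes, 2 were higher and 1 lower in number 1 than in 2 (median -0.06, 2 of 6 above 0), and 1 was higher than in 3 (median 0.02). The adaptor Mavs was 0.89 higher, Trim25, the ubiquitin ligase that acts on RIG-I, 0.77 higher, and the kinase Tbk1 0.35 lower in number 1 (difference -0.35). Only 1 gene of this list passed against number 3, and it was higher there in number 1. Tbk1 thus passed against number 2 alone, and Mavs and Trim25 did not both pass against number 3. Of 13 further interferon-stimulated genes tested (of 39 with a probe set, 23 of them below 4 on all 12 arrays), 7 were higher and 1 lower in number 1 than in 2, and 6 higher and 1 lower than in 3. Parp12 was 1.45 and 0.59 and Ifi27 0.56 and 0.80 higher in number 1.

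Of 6 further antigen processing genes tested, 4 were higher in number 1 than in 2 (background 29%) and 3 than in number 3 (background 28.5%), with 0 lower. Psme1, an activator subunit of the immunoproteasome, was 1.39 and 0.74 higher, Pdia3, a chaperone of the peptide loading complex, 0.66 and 1.20 higher, Tapbp (tapasin) 0.36 higher than in number 2 and Psmb10 0.53 higher than in number 3. The only MHC class II gene tested, Cd74, did not pass.

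Markers of other cell types moved with the replicate number as well. The counts in this paragraph and the next are to be read against all probe sets. Of those, 29% were higher and 24.2% lower in number 1 than in 2, and 28.5% and 19.8% than in 3. The log2 summed level of 8 fibroblast and meningeal markers was 8.90 to 9.95 in number 1, 7.91 to 8.22 in number 2 and 7.25 to 7.59 in number 3, and of 7 tested, 5 were higher and 1 lower in number 1 than in 2, and 5 higher than in 3, among them the collagen Col3a1 (2.11 and 1.97) and decorin, Dcn (1.51 and 4.67). That of 9 oligodendrocyte markers was 14.83 to 14.89, 14.52 to 14.67 and 14.20 to 14.44, and 6 and 7 of 9 were higher in number 1. The astrocyte and Bergmann glia markers had another order. Of 12 tested, 2 were higher and 1 lower in number 1 than in 2 (median 0.30). Against number 3, 1 was higher and 2 were lower (median -0.27, 1 of 12 above 0).

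Microglia markers did not follow the members. The log2 summed level of 15 microglia and macrophage markers was 11.77 to 12.39 in number 1, 11.65 to 12.28 in number 2 and 12.24 to 12.67 in number 3. Of 12 tested, 1 was higher and 2 lower in number 1 than in 2, and 0 higher and 4 lower than in 3, among them C1qa (-1.59 for 1 minus 3) and the receptor Csf1r (-0.98). Granule cell markers were at a summed level of 16.37 to 16.57 on every array, and of 9 tested, 2 were higher and 2 lower in number 1 than in 2, and 2 higher and 1 lower than in 3. In either direction, the shares of microglia and granule cell markers that passed were below the 53.2% and 48.2% of all probe sets. The part of these cells in the members' differences was not tested.

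**Figure D4:**
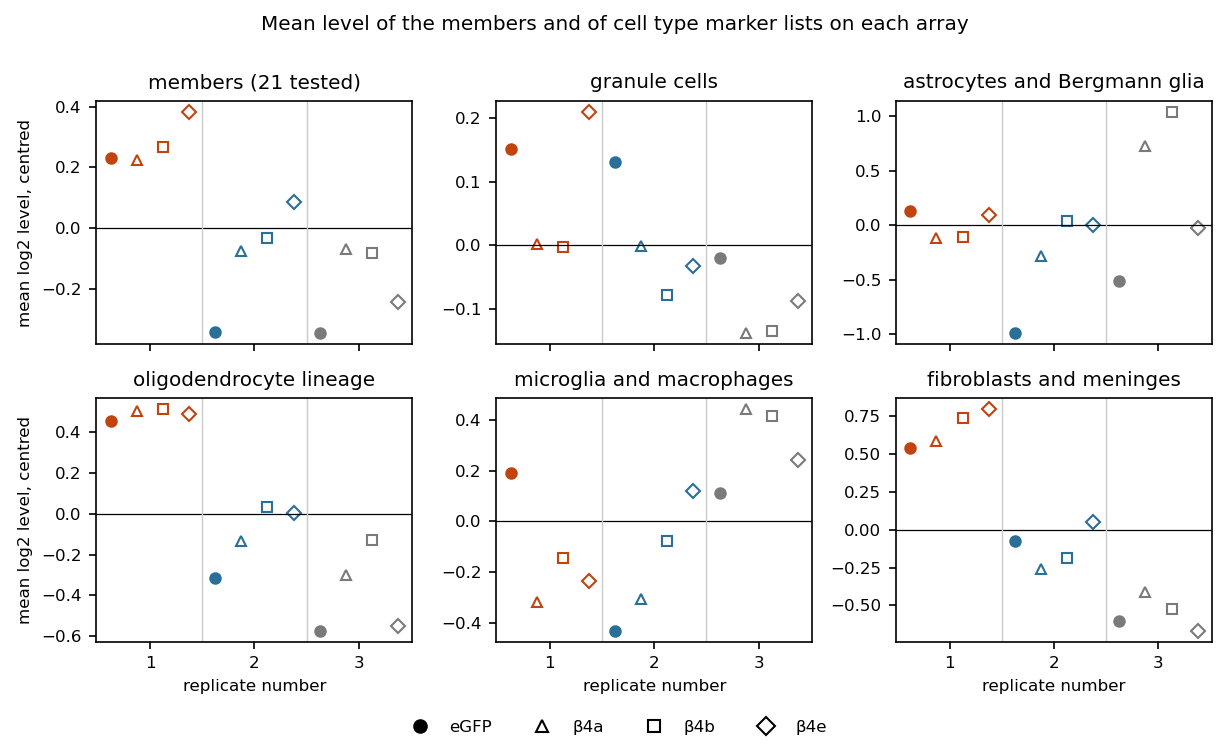
Mean log2 level of the 21 tested members and of 5 marker lists on each array, centred on each list's mean (y axis, a scale of its own per panel), by replicate number (x axis) and group (shape). The members and the fibroblast and oligodendrocyte markers are highest in number 1, microglia markers are not, and the astrocyte markers are lowest on the eGFP arrays numbered 2 and 3.

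Across the 12 arrays the members did not move as 1 block. The correlation of a member with the mean of the other 20, given as a description over arrays that share replicate numbers, was 0.95 for Ifit2, 0.89 for Ifih1, 0.87 for B2m, Psmb8 and Ifit3, 0.34 for Ifitm3, 0.26 for Stat2, 0.25 for Eif2ak2 and -0.58 for Oas2. The 8 genes outside the lists whose profile was most like the members' mean were Tshz2, Islr, Prrg1, Wwtr1, Lgals1, Rhobtb3, Atg5 and Lrig1, with r from 0.966 to 0.981 over 12 arrays. Islr stood at 7.56 in number 1, 5.95 in number 2 and 5.55 in number 3, with the eGFP arrays numbered 2 and 3 at 5.09 and 4.71.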

How the data were processed

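Total RNA of 12 samples was labelled with biotin and hybridised to 1 Affymetrix array each, per the labels. The deposited values are log2 intensities that the authors made with GCRMA, per the submitters' processing notes; its version is not given in the sources used here. GCRMA corrects background by probe sequence and normalizes between arrays, so differences of probe sets near background can be understated. The values were used as deposited, and the array medians lay between 3.84 and 3.90. Depth in reads does not apply, and the number of arrays limits the precision.

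Probe sets were named through the platform annotation (34945 with 1 symbol, 932 with several, 9160 with none), and 64 controls were left out. Linear models of all 12 arrays came from limma (version 3.58.1, run under R 4.3.3) with lmFit and moderated variances from eBayes (two-sided, Benjamini-Hochberg over 23044 probe sets, threshold 0.05), with 1 coefficient per group (8 residual degrees of freedom), or with group and replicate number (6). The labels do not say whether replicates were separate cultures. Deviations from the group means correlated in each of the 18 pairs with a shared number (r 0.699 to 0.884; pairs of different groups and numbers at most 0.146), so the numbers were taken to pair the arrays and blocked counts are given. The scripts were tested on simulated data.

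The members, pathway lists, marker lists and tests were chosen with earlier results of these data known. Array values are given for the 12 members with the largest range between the means of replicate numbers and for B2m, H2-D1 and H2-K1, and up to 4 genes past the threshold, by size of difference, are named per pathway list. Ifitm3 and the interferon receptors were added after their values were seen. The alternatives were a replicate block, other filters, normalization again, a variance trend, all probe sets of a gene, no group term and leaving out each array. Promoter windows and their build are RefSeq's. Motifs were searched on both strands.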

Additional observations from a re-analysis of the deposited data

How the results depend on the processing

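In the comparisons of groups, 0 members passed under every alternative run, with the replicate block, without the filter, without the arrays of replicate number 1 (added after seeing the data) and with each array left out, with or without the block. Between replicate numbers, the filter at 5, which left 10 members tested, gave 5 members for number 1 minus 2 (50%, against 56.9% of all probe sets), 7 for 1 minus 3 (70%, against 50.9%) and 7 for any difference (70%, against 69.6%). For number 2 minus 3, normalizing again gave 2 (9.52%, against 32.6%) and the variant arrays alone, an alternative added after seeing the data, gave 2 (against 23%). Leaving out 1 array gave 9 to 13 members for 1 minus 2 (45.5% to 52.1% of all probe sets), 11 to 13 for 1 minus 3 (40.7% to 47.0%), 10 to 15 for any difference (58.8% to 63.8%) and 1 to 4 for 2 minus 3 (22.9% to 34.2%), where only Eif2ak2 passed without the array of replicate number 3 of any group or that numbered 2 of β4b. These fits had fewer arrays.

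Among single members, the difference of Eif2ak2 from eGFP did not keep its sign in every leave-one-out fit that lacked the block, ranging from -0.0436 to 0.78 for β4b, -0.118 to 0.68 for β4e and -0.0315 to 0.61 for the mean of the variants; with the block it kept its sign. With all its tested probe sets averaged, Eif2ak2 was 0.10 higher in number 1 than in 2. Stat2 ranged from -0.00984 to 0.32 for number 1 minus 3, and H2-D1 was -0.0277 for β4a with the block and without the β4a array numbered 3. The cause was not tested. Of the alternatives for single members, 1398 kept direction and side of the threshold, 48 lost the call, 11 gained one and 8 changed sign. Most members read near background, which limits what small differences can be seen.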
